A study of Mus musculus with 32 samples.

Results

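Cell cycle and DNA replication genes were followed in a mouse model of benign prostatic hyperplasia. The members are 45 named genes, found by their symbols among the 13780 genes of the deposited table, and all 45 were present. They were sorted by role into 13 genes of DNA replication and S phase, 5 G1/S cyclins and regulators, 7 mitotic entry kinases and cyclins, 12 genes of the spindle, kinetochore and chromosome, and 8 genes of cytokinesis and the anaphase-promoting complex (APC/C). RNA-seq was done on 3 tissues, the prostatic urethra, the dorsal lateral lobe (DLP) and the anterior lobe (AP) of the prostate, of male C57/BL6 mice, called adult here to set them apart from embryos, and on the urogenital sinus (UGS), the embryonic tissue that gives rise to the prostate. For 2 weeks these mice carried 25 mg of testosterone together with 2.5 mg of oestrogen under the skin, here called T+E2, or received no hormone. UGS was taken from male embryos at E16.5, and the labels give a culture of 6 days in testosterone, beside control cultures marked NH, read here as no hormone. The age of the mice and the length of the hormone-free culture are not given in the labels. Each of the 8 groups held 4 libraries, named here by the submitters' numbers or letters. The labels do not say whether libraries of a group came from separate animals or were pooled, so the p-values measure only the spread between these libraries.

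Cells divide by passing through G1, S phase, G2 and mitosis in order. D-type and E-type cyclins with their kinases release E2F transcription factors at the G1/S boundary, and E2F targets such as the MCM helicase, the clamp Pcna and the enzymes that make deoxynucleotides then allow DNA to be copied. Later, Cdk1 with cyclin A and cyclin B drives mitosis, and a second wave of genes, bound in many cells by the MuvB complex with FoxM1 or B-Myb, supplies the spindle, the kinetochore and the machinery of cytokinesis. The APC/C, a ubiquitin ligase, ends mitosis by marking cyclin B for destruction. Adult prostate epithelium divides rarely, while the embryonic UGS is a growing tissue, and androgen acts on both.

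Promoter sequence is shown first for 5 members, chosen because 4 of them were each among the 4 largest falls of their role in the AP and the last, Tyms, was the 1 member that rose there. RefSeq promoters (GRCm38.p6, a later build than the mm9 of the submitters' notes) were matched by symbol for 35 of the 45 members, and each was searched over 300 bases, from 250 before the transcription start to 50 after it. The bases before the start are printed 5′ to 3′ on the strand of the gene, with matches in capitals. The motifs, on both strands, were the cell cycle homology region CHR (TTTGAA or TTCGAA), the CCAAT box (CCAAT, read ATTGG on the other strand), and an E2F site (TTTCCCGC, TTTGGCGC, TTTCGCGC or TTTGCCGC).
Top2a (chr11:99024190-99024439, minus strand): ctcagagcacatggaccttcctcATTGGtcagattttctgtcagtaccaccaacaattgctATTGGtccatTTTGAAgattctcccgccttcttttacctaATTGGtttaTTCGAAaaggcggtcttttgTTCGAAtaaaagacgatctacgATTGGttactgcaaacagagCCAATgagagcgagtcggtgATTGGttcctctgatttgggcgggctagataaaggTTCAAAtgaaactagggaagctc
Ube2c (chr2:164769679-164769928, plus strand): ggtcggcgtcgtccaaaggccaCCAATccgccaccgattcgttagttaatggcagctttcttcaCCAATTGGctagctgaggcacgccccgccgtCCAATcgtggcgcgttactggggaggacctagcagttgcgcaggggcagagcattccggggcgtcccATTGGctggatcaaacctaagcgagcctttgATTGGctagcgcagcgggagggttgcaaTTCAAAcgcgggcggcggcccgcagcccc
Cdk1 (chr10:69352913-69353162, minus strand): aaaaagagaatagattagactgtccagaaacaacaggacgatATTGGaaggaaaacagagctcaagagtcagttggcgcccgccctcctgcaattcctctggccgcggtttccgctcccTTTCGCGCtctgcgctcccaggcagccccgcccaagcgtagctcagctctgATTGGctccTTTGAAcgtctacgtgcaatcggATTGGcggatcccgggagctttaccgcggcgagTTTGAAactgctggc
Mcm6 (chr1:128359706-128359955, minus strand): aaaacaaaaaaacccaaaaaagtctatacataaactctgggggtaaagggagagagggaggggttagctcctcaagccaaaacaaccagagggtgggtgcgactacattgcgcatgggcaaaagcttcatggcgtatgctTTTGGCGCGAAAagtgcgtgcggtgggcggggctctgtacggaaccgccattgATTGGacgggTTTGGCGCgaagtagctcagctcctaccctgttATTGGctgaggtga
Tyms (chr5:30073626-30073875, minus strand): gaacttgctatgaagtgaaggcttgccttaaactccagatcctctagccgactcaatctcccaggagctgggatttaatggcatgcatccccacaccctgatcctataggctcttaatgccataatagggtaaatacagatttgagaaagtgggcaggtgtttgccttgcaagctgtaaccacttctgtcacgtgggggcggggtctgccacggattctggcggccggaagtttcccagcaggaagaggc
Top2a held 4 CHR and 6 CCAAT matches, and Ube2c held 1 CHR and 6 CCAAT matches, of which 2 share bases in the run CCAATTGG. Cdk1 held 2 CHR, 3 CCAAT and 1 E2F match. Mcm6 held 3 E2F matches, of which 2 overlap in the run TTTGGCGCGAAA, and 2 CCAAT matches. Tyms held none of these letters in this window.

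Over the 35 member promoters searched, 20 held a CHR match (57.1%, against 19.4% of 27025 mouse promoters of the same length). By role, 18 of the 22 promoters of mitotic and cytokinesis members held a CHR match (81.8%), and 2 of the 11 of replication members did (18.2%). A CCAAT box was found in 27 of the 35 (77.1%, against 37.9%). An E2F match was found in 6 of the 35 (17.1%, against 2.32%), 5 of them replication members and the other Cdk1. These are matches of letters and not measured binding. Ccna2, Ccnd1, Ccnd2, Ccne2, Aurkb, Kif20a, Tpx2, Mcm4, Gmnn and Foxm1 were not searched.

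Several libraries stood apart before any comparison. Values are in TPM, the authors' transcript level, which is scaled per transcript length, so that levels may be compared between genes but read depth is unknown. Library sums were 994133 to 997961 TPM, and 12289 to 13337 genes reached 1 TPM in a library. The summed level of 8 seminal vesicle genes was 99146 and 72084 TPM in AP T+E2 libraries 17 and 18 and 54217 TPM in AP control library 9, against 35.6 to 1988 TPM in the other 5 AP libraries. It was 152486 to 266505 TPM in all 8 DLP libraries. DLP T+E2 libraries 18 and 24 held 2280 and 2490 TPM of 10 skeletal muscle genes, against 272 to 815 TPM in the other 6. The labelled tissues were also checked by their markers. The epithelial genes Epcam, Krt8, Krt18 and Cdh1 were above 0 in every library. The 10 skeletal muscle genes summed to 44190 to 52071 TPM in urethra control libraries and 54347 to 72747 TPM in urethra T+E2 libraries, without overlap. Prostate secretion genes summed to 966 to 16093 TPM in urethra control libraries and 83.6 to 866 TPM in urethra T+E2 libraries. The part of these tissues in the urethra comparison was not tested. Within the AP control group, library 8 held the lowest value for 35 of the 45 members and library 9 the highest for 31.

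T+E2 in the anterior prostate. Cell cycle transcripts fell broadly in the AP. Of the 42 members that could be tested, 33 were lower after T+E2, against 12.9% of all 12525 genes tested, and 1 was higher, against 21.6%. Top2a, the topoisomerase that untangles DNA strands before chromosomes separate, fell furthest. Tyms, thymidylate synthase, was the 1 member that rose. All 7 mitotic entry genes fell, as did 9 of 10 tested spindle, kinetochore and chromosome genes, 10 of 13 replication genes, 6 of 8 cytokinesis and APC/C genes, and 1 of 4 tested G1/S genes.

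The test was limma on log2(TPM + 1) with Benjamini-Hochberg adjustment over all genes tested and a call at an adjusted p under 0.05. Differences below are on this log2 scale, treated minus control, with the standard error, and they understate the change of genes near 1 TPM. The median difference over the 42 tested members was -0.65, and over all genes tested it was 0.07. In 27 members every T+E2 library lay below every control library (13.0% of all genes), and in 2 every T+E2 library lay above (21.4%). In bulk tissue, fewer dividing cells and less of these RNAs per cell cannot be told apart.

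**Figure D1:**
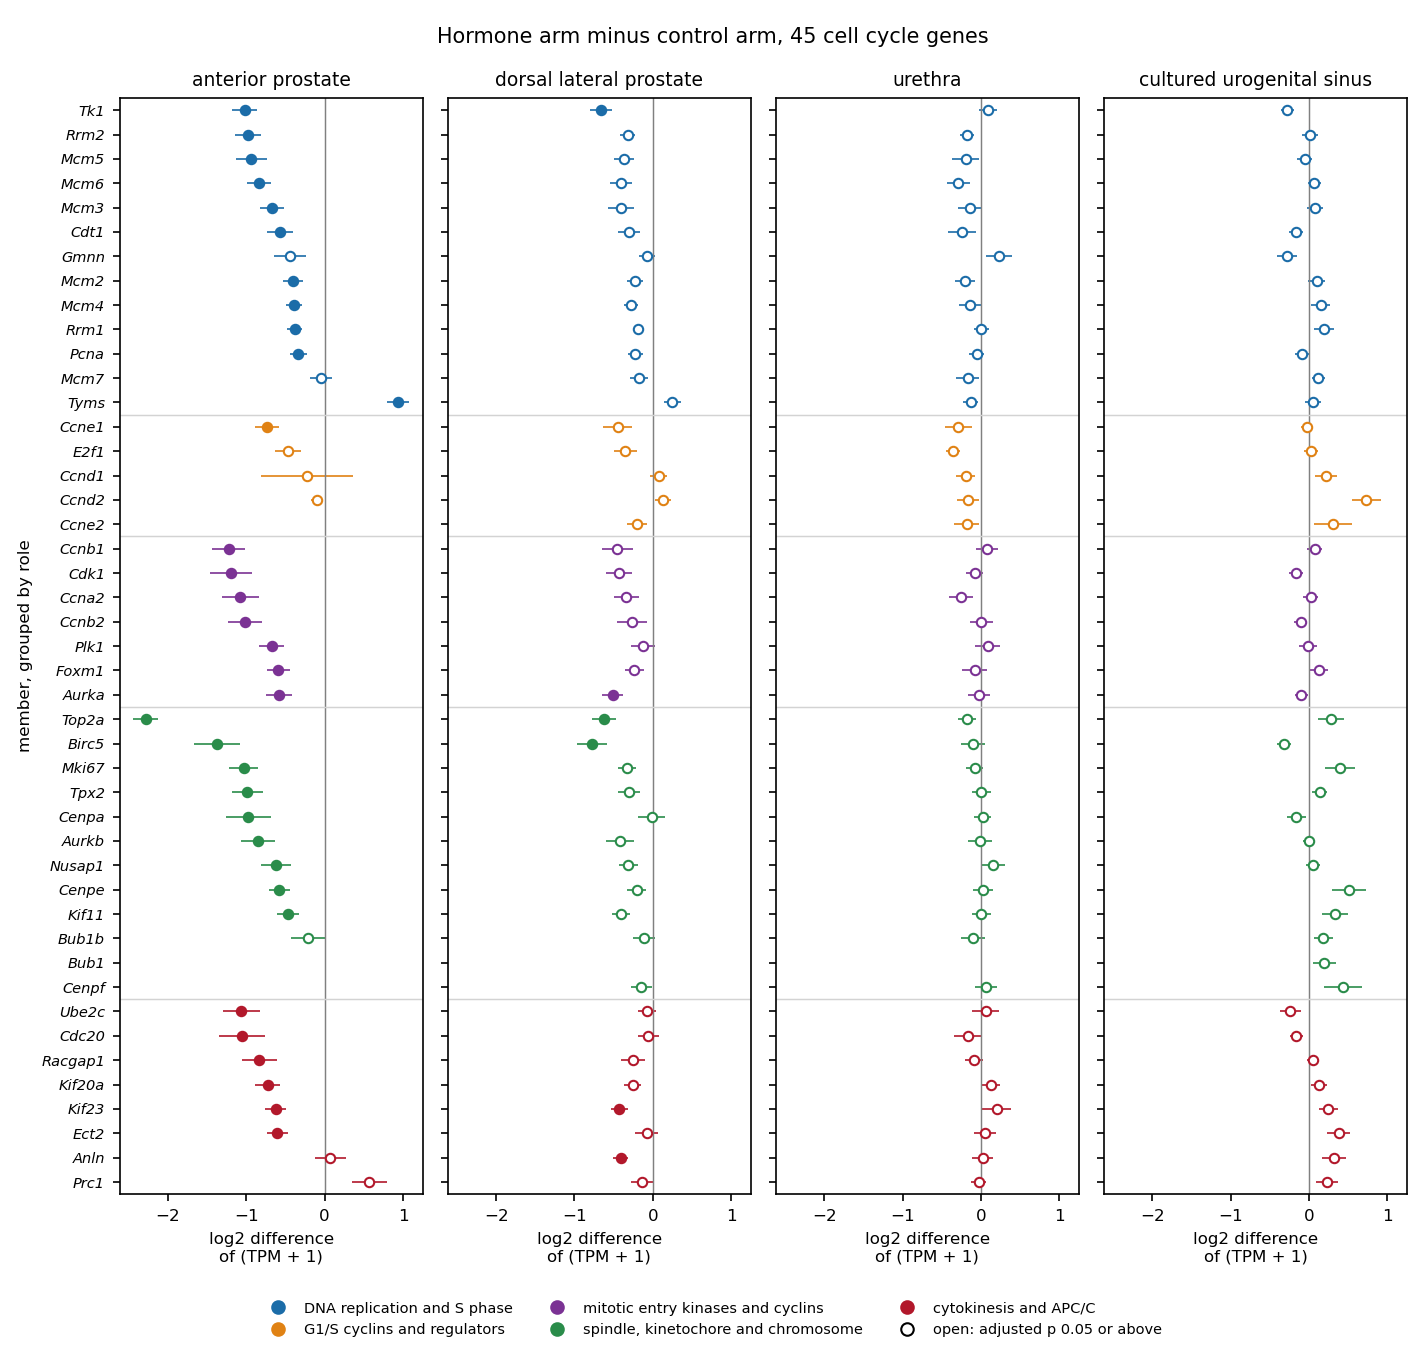
Difference on the log2(TPM + 1) scale between hormone and control libraries for the 45 members in 4 tissues, with bars of 1 SE over 4 against 4 libraries. Filled points had an adjusted p under 0.05. A missing point is a member under the filter. In the AP 33 filled points lie left of 0 and Tyms alone lies right of it, in the DLP 6 are filled, and in the urethra and UGS none is.

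Among spindle, kinetochore and chromosome genes, AP control libraries 6, 7, 8 and 9 held Top2a at 20.4, 19.0, 13.7 and 20.0 TPM and T+E2 libraries 2, 3, 17 and 18 at 2.88, 2.05, 3.24 and 3.72 TPM. The lowest control library was above every treated library by several fold. The difference was -2.28 ± 0.16 (adjusted p = 2.02e-06), and all 4 treated libraries shared it. Every list of 4 AP values below follows the same library order.

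Birc5, survivin, which guides the chromosomal passenger complex, stood at 8.37, 13.2, 4.36 and 11.9 TPM in control and 3.93, 2.11, 1.90 and 3.57 TPM in treated libraries. Control library 8 lay close above the treated libraries and the groups did not overlap. Birc5 fell by 1.37 ± 0.29 (adjusted p = 0.00462). Mki67, the protein Ki-67 that coats mitotic chromosomes and serves as the usual marker of dividing cells, was at 6.19, 6.39, 4.11 and 7.31 TPM in control and 2.38, 1.49, 2.92 and 2.92 TPM in treated libraries, without overlap. Its difference was -1.03 ± 0.18 (adjusted p = 0.00159). Tpx2, a spindle assembly factor, went from 3.65, 4.08, 2.18 and 4.75 TPM to 1.67, 0.860, 1.09 and 1.70 TPM, again without overlap, a difference of -0.99 ± 0.19 (adjusted p = 0.00299). The other members that fell in this role were the centromere histone Cenpa, the passenger kinase Aurkb, the microtubule protein Nusap1 and the motors Cenpe and Kif11, with differences between -0.97 and -0.47. Cenpe passed the filter through its control libraries alone, so it had to differ. Cenpa, Nusap1 and Kif11 each lost the call without any 1 of 5 single libraries, with an adjusted p of at most 0.0837. The checkpoint gene Bub1b did not pass the test, at -0.21 ± 0.22 (adjusted p = 0.48).

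The genes that start mitosis fell together. Ccnb1, cyclin B1, was at 4.53, 7.11, 3.28 and 7.05 TPM in control and 1.71, 1.52, 1.27 and 2.35 TPM in treated libraries. Its kinase partner Cdk1 was at 6.01, 7.02, 3.02 and 8.12 TPM and 1.96, 1.19, 1.73 and 3.24 TPM. Every treated Ccnb1 value lay below every control value, while for Cdk1 treated library 18 lay above control library 8. The differences were -1.22 ± 0.21 (adjusted p = 0.0013) for Ccnb1 and -1.19 ± 0.26 (adjusted p = 0.0055) for Cdk1. Ccna2, the cyclin of S phase and G2, was at 5.92, 6.97, 3.17 and 8.39 TPM and 2.67, 1.44, 2.31 and 2.67 TPM, and Ccnb2 at 5.28, 5.17, 3.20 and 7.65 TPM and 2.29, 1.33, 1.88 and 2.83 TPM. Neither gene's groups overlapped. They fell by 1.08 ± 0.24 and 1.01 ± 0.22 (adjusted p = 0.00523 and 0.00466). The polo-like kinase Plk1, the spindle pole kinase Aurka and Foxm1, the transcription factor of many G2/M genes, fell by smaller amounts, at -0.67, -0.58 and -0.59. Aurka lost the call without AP T+E2 library 2 or control library 6, 7 or 9 (adjusted p 0.0596 to 0.0706).

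Of the genes that end mitosis, Ube2c, the ubiquitin-conjugating enzyme of the APC/C, was at 9.75, 13.3, 5.79 and 13.4 TPM in control and 5.21, 2.99, 4.26 and 5.10 TPM in treated AP libraries. Its groups did not overlap and the difference was -1.06 ± 0.24 (adjusted p = 0.00597). Cdc20, the activator of the APC/C, was at 7.32, 9.02, 3.09 and 7.87 TPM and 3.52, 1.57, 1.88 and 3.85 TPM, with control library 8 inside the treated range. Cdc20 fell by 1.06 ± 0.29 (adjusted p = 0.0185), and the call was lost without control library 6 or 7 (adjusted p 0.0503 to 0.0570). Racgap1, which forms the centralspindlin complex with Kif23, was at 4.56, 4.77, 2.70 and 6.93 TPM and 2.69, 1.35, 1.97 and 2.60 TPM. The central spindle motor Kif20a was at 4.88, 3.36, 3.62 and 5.68 TPM and 2.03, 1.74, 2.18 and 2.98 TPM. Both pairs of groups were separate. The differences were -0.84 ± 0.22 (adjusted p = 0.0151) for Racgap1 and -0.73 ± 0.16 (adjusted p = 0.00634) for Kif20a. Kif23 and the RhoA exchange factor Ect2 fell by a like amount, at -0.63 and -0.61.

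The median difference was -0.44 over the replication genes, -1.01 over the mitotic entry genes and -0.91 over the tested spindle group, and these medians were not tested against each other. Tk1, thymidine kinase, was at 11.6, 12.2, 12.2 and 17.4 TPM in control and 7.77, 4.92, 5.02 and 6.71 TPM in treated libraries. Rrm2, the small subunit of ribonucleotide reductase, was at 13.7, 17.0, 10.7 and 19.1 TPM and 6.72, 5.54, 8.06 and 8.01 TPM. In both genes every treated library lay below every control library. The differences were -1.02 ± 0.16 (adjusted p = 6.83e-04) for Tk1 and -0.98 ± 0.17 (adjusted p = 0.00139) for Rrm2. Of the MCM helicase, Mcm5 went from 4.42, 5.60, 4.14 and 9.43 TPM to 2.15, 2.87, 2.27 and 2.61 TPM and Mcm6 from between 10.4 and 17.9 TPM in the 4 control libraries to 7.40, 7.28, 9.33 and 7.26 TPM. Both stayed apart between groups, at -0.93 ± 0.20 (adjusted p = 0.00499) and -0.83 ± 0.15 (adjusted p = 0.00195). Mcm3, Mcm2 and Mcm4 also fell, by 0.40 to 0.68, with Mcm2 losing the call without any 1 of 6 libraries (adjusted p 0.0529 to 0.0900), and Mcm7 gave -0.05 ± 0.14 (adjusted p = 0.804). These genes encode subunits of 1 hexameric helicase.

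Pcna, the sliding clamp of the replication fork, was at 72.6, 80.3, 69.9 and 95.1 TPM in control and 60.5, 67.3, 67.6 and 54.8 TPM in treated AP libraries. The groups lay close but did not overlap. Its difference of -0.34 ± 0.11 (adjusted p = 0.0316) was lost without T+E2 library 2 or 18 or control library 7 or 9 (adjusted p 0.0678 to 0.0767). The licensing factor Cdt1 and the large reductase subunit Rrm1 fell at -0.57 and -0.38, the former lost without T+E2 library 3 or 17 or control library 7 (adjusted p 0.0514 to 0.0606), while geminin, Gmnn, the inhibitor of Cdt1, gave -0.44 ± 0.20 (adjusted p = 0.113).

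Tyms went the other way from the rest of the replication genes. It was at 38.6, 29.1, 49.5 and 34.5 TPM in control and 72.0, 73.4, 79.2 and 64.7 TPM in treated AP libraries. Every treated library exceeded the highest control library. Tyms rose by 0.94 ± 0.14 (adjusted p = 4.76e-04) in 4 of 4 libraries, while Tk1, the enzyme that makes the same nucleotide by salvage, fell. Prc1, which bundles the central spindle, and Anln, a scaffold of the cleavage furrow, were the other members with a positive difference, and both are named here after their values were seen. Prc1 gave 0.57 ± 0.22 (adjusted p = 0.0721) and Anln 0.07 ± 0.20 (adjusted p = 0.803), neither past the threshold. For Prc1 every treated library (7.96 to 14.7 TPM) still lay above every control library (3.81 to 7.73 TPM), as for Tyms. The Anln groups overlapped.

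**Figure D2:**
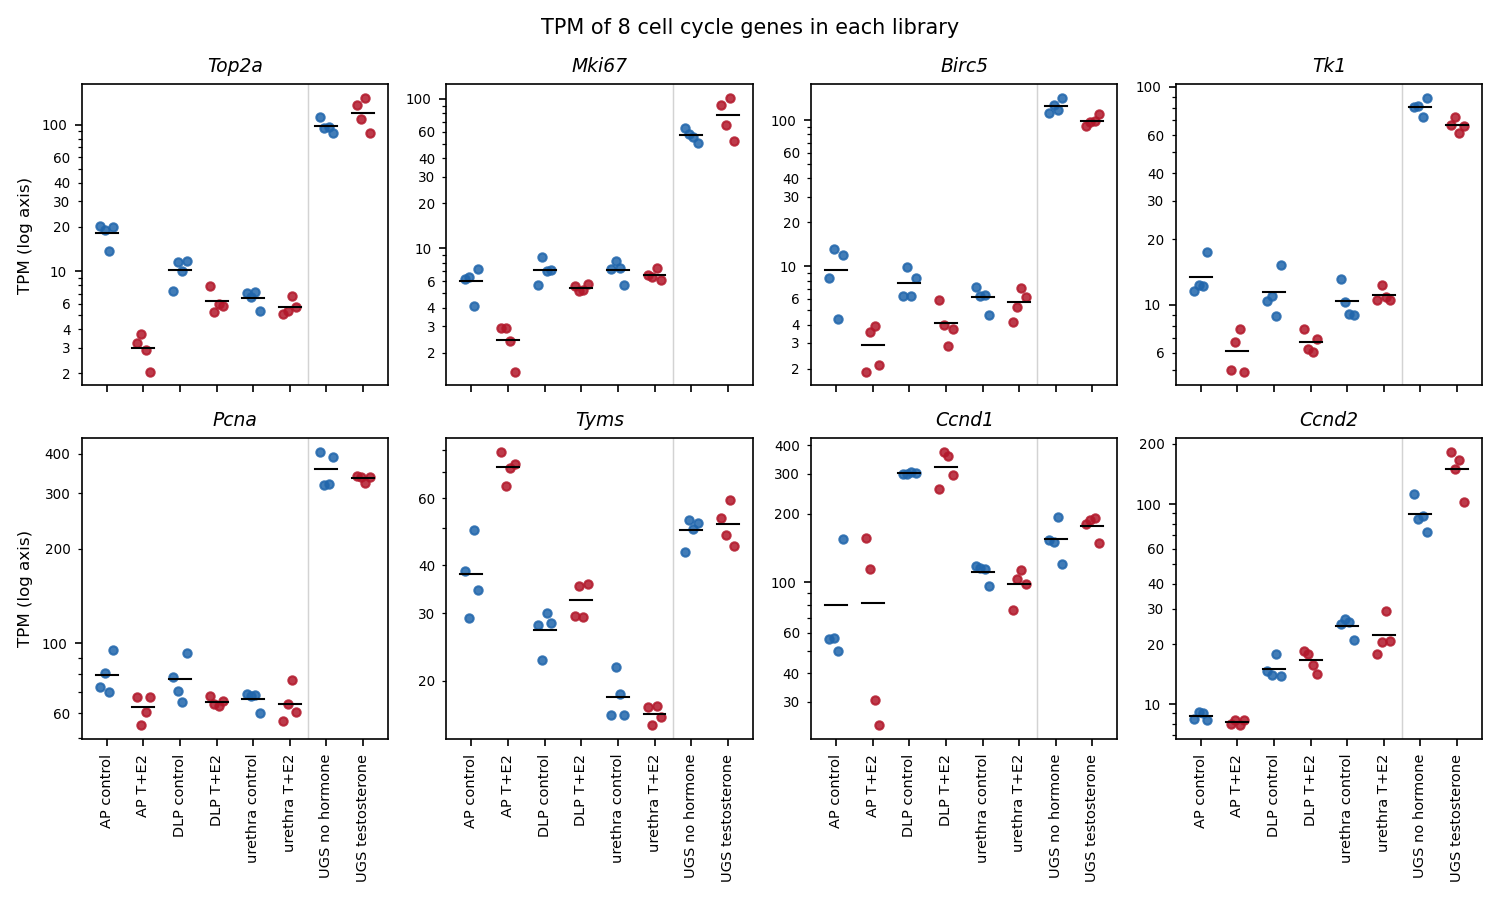
TPM in each library of 8 members over the 8 groups, on log axes. Blue points are control or hormone-free libraries, red points hormone libraries, and black lines group means of 4 libraries. The AP T+E2 libraries lie below all other adult libraries for Top2a and Mki67 and above them for Tyms, and the Ccnd1 values of the AP spread over both arms.

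Of the G1/S genes only Ccne1, cyclin E1, fell in the AP. It stood at 1.98, 3.07, 2.81 and 3.12 TPM and 1.48, 1.64, 1.04 and 0.860 TPM, without overlap, a difference of -0.73 ± 0.15 (adjusted p = 0.00404). E2f1 just missed the threshold at -0.47 ± 0.17 (adjusted p = 0.0517). Ccnd2, a D-type cyclin, was at 8.41, 9.19, 8.99 and 8.34 TPM and 7.83, 8.36, 7.93 and 8.37 TPM, overlapping between the groups, with a difference of -0.09 ± 0.08 (adjusted p = 0.384; 95% interval -0.26 to 0.08). Ccnd1, the other D-type cyclin, was at 56.7, 57.1, 49.8 and 156 TPM in control and 30.5, 23.6, 157 and 115 TPM in treated libraries. The 3 high values belonged to control library 9 and treated libraries 17 and 18, the libraries rich in seminal vesicle transcripts. The difference over all 8 libraries was -0.23 ± 0.59 (adjusted p = 0.793). Ccnd1 was 256.5 to 374 TPM in the DLP, where the seminal vesicle genes were abundant in every library, and 76.0 to 118 TPM in the urethra. The part of seminal vesicle RNA in these Ccnd1 values was not tested.

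**Figure D3:**
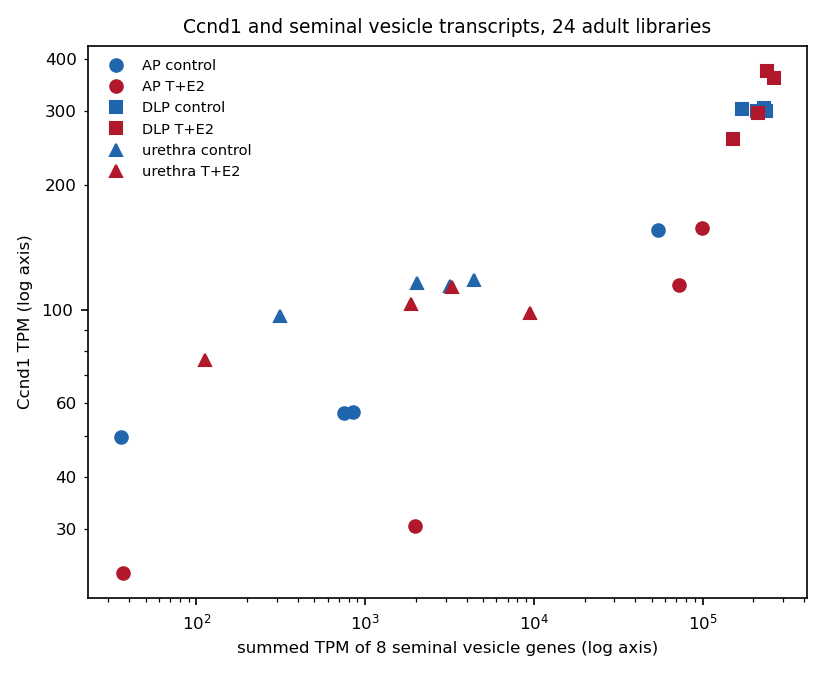
Ccnd1 TPM against the summed TPM of 8 seminal vesicle genes in the 24 adult libraries, both on log axes, with shape for tissue and colour for arm. The 3 AP libraries at the right of the AP points hold 115 to 157 TPM of Ccnd1 and the other 5 hold 23.6 to 57.1 TPM.

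The AP result was repeated without those 3 libraries, on 3 control and 2 treated libraries. Then 23 members were lower (10.0% of all genes) and 3 higher (20.2%). Of the 34 members first called, 22 kept their call, Tyms among them, and 11 lost it, with differences from -1.04 for Cdc20 to -0.21 for Pcna. The other 1, Cenpe, no longer passed the filter. Top2a remained at -2.43 (adjusted p = 1.92e-05). Ccnd1, at -0.995, and Gmnn, at -0.60, became lower, and Prc1, at 0.90, and Anln, at 0.49, became higher. Ccne2, Bub1 and Cenpf had been left out because fewer than 4 AP libraries reached 1 TPM. Their control libraries held 0.27 to 1.95, 0.45 to 1.60 and 0.84 to 1.98 TPM, and their treated libraries 0.63 to 0.93, 0.22 to 0.55 and 0.38 to 0.86 TPM. With no filter 35 members were lower. With a filter of 5 TPM 16 members were left, of which 9 were lower and 1 higher, and Top2a passed it through its control libraries alone. Shares of all genes are not given for these other filters, so their counts show only how the members' calls moved.

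Other markers moved with the AP groups too. The 8 leukocyte markers in the table, of 13 listed, summed to 586 to 801 TPM in control and 280 to 462 TPM in treated libraries, and none was at 0. Of these, 3 fell and 2 rose. The 4 epithelial markers summed to 1673 to 1829 TPM in control and 1484 to 1638 TPM in treated libraries. The 5 uroplakins, which mark the lining of the bladder and urethra, summed to 234 to 269 TPM and 838 to 1334 TPM, and 3 of the 4 tested rose. The 6 prostate secretion genes in the table, of 7 listed, summed to 81598 to 94035 TPM in control and 28420 to 37708 TPM in treated libraries, and 4 fell and 1 rose. The part of these cell types in the fall of the members was not tested.

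Beyond the 45 members, other genes of the same processes were counted in the AP, where 12.9% of all genes were lower and 21.6% higher. How many of the further genes passed the filter through a single arm, and so had to differ, was not counted. Of 53 further mitotic genes tested, 23 were lower and 3 higher, with a median of -0.40. The 4 with the smallest adjusted p were the chromatin protein Hmgb2 (-0.91 ± 0.10), the kinase Melk (-1.03 ± 0.15), the Cdk1-binding protein Cks2 (-0.71 ± 0.11) and the microtubule protein Ckap2l (-0.92 ± 0.15). Of 43 further replication genes tested, 7 were lower, near the share of all genes, and 3 higher, with a median of -0.05. The 4 with the smallest adjusted p among them were the uracil glycosylase Ung (-1.36 ± 0.12), the helicase partner Gins2 (-0.78 ± 0.11), Dbf4, the activator of the origin kinase Cdc7 (-0.69 ± 0.11), and Uhrf1, which copies DNA methylation (-1.37 ± 0.23). Of 31 S phase repair genes, 5 were lower, again near that share, and 2 higher. Among them were the histone H2afz (-0.88 ± 0.07), Fanca of the Fanconi complex, which rose (1.97 ± 0.28), and the recombination gene Rad54l (-0.70 ± 0.15).

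Of 26 CDK inhibitors and quiescence genes in the AP, 7 were higher and 3 lower, shares near those of all genes. The stress gene Gadd45a rose by 1.91 ± 0.15 (adjusted p = 4.60e-06). Wee1, the kinase that holds Cdk1 inactive, fell by 1.49 ± 0.11 (adjusted p = 3.74e-06), and Btg1 and Cables1 gave -0.56 ± 0.08 and -0.64 ± 0.10. Of 25 other cyclins and CDKs, 3 were higher, Cdk17 (0.86 ± 0.09), Cdk10 (0.35 ± 0.09) and Cdk4 (0.21 ± 0.07), and none was lower by limma, nor at an unadjusted p under 0.05. Of 17 other cell cycle transcription factors, 2 were higher, E2f6 (0.51 ± 0.09) and Max (0.30 ± 0.08), and 2 lower, Myc (-0.74 ± 0.13) and Mxd3 (-0.84 ± 0.25). Of 23 growth signal genes, 6 were higher and 4 lower, led by the growth factors Areg (3.98 ± 0.19), Hbegf (0.85 ± 0.08) and Egf (-1.60 ± 0.16) and the receptor Tgfbr1 (1.02 ± 0.10).

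T+E2 in the dorsal lateral prostate. A smaller fall was measured in the DLP. Of 44 members tested there, 6 were lower (4.63% of all 13108 genes tested) and none was higher in the limma fit (6.09%), where 1 member was higher at an unadjusted p under 0.05. The 6 were Birc5, Tk1, Top2a, Aurka, Kif23 and Anln. The median difference over the tested members was -0.27, against 0.02 over all genes tested. In 10 members every treated library lay below every control library (7.41% of all genes), and in none above (8.92%). The difference was negative in 41 of the 44, the others being Tyms, Ccnd1 and Ccnd2.

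DLP control libraries 7, 8, 9 and 10 held Birc5 at 9.96, 6.24, 8.30 and 6.32 TPM and T+E2 libraries 1, 2, 18 and 24 at 3.96, 3.73, 5.92 and 2.85 TPM, and the lists below keep this order. The groups did not overlap, and the difference was -0.78 ± 0.19 (adjusted p = 0.0254). Top2a was at 11.6, 10.0, 11.7 and 7.30 TPM and 5.25, 5.79, 7.88 and 5.97 TPM, with treated library 18 just above control library 10. Its difference was -0.62 ± 0.15 (adjusted p = 0.0278). Tk1 was at 11.0, 8.86, 15.3 and 10.4 TPM and 6.23, 6.93, 7.69 and 6.06 TPM, separate in all libraries, at -0.66 ± 0.14 (adjusted p = 0.0149).

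Aurka was at 5.08, 4.13, 7.10 and 5.01 TPM in control and 3.20, 3.62, 3.29 and 3.41 TPM in treated DLP libraries, and its groups did not overlap. Kif23, the centralspindlin motor, was at 3.38, 3.53, 3.60 and 2.63 TPM and 2.07, 2.10, 2.37 and 2.14 TPM. Anln was at 9.26, 9.40, 10.8 and 10.1 TPM and 6.22, 8.12, 7.56 and 6.90 TPM. Both were separate between the groups. The differences were -0.51 ± 0.13 (adjusted p = 0.0343), -0.43 ± 0.11 (adjusted p = 0.0322) and -0.41 ± 0.09 (adjusted p = 0.0183). Mki67 gave -0.33 ± 0.11 (adjusted p = 0.1) and Pcna -0.22 ± 0.10 (adjusted p = 0.201), neither past the threshold. Tyms, which rose in the AP, gave 0.25 ± 0.10 (adjusted p = 0.164) here.

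Neither D-type cyclin passed the test in the DLP. Ccnd1 was at 299.9, 305, 303 and 299 TPM in control and 374, 297, 256.5 and 359.6 TPM in treated libraries, with the controls inside the treated range. Ccnd2 was at 13.9, 17.7, 13.9 and 14.7 TPM and 17.9, 14.2, 18.5 and 15.7 TPM, overlapping. The differences were 0.08 ± 0.11 (95% interval -0.17 to 0.32) and 0.13 ± 0.10 (-0.10 to 0.36).

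The DLP calls rested on few libraries. The count was 1 without treated library 1 or without control library 9, 2 without treated library 24 or control library 7, and between 4 and 7 without any other. Without treated libraries 18 and 24, which held more skeletal muscle transcripts, Birc5 and Top2a (-0.76, adjusted p = 0.0338) stayed and the other 4 were lost, where 2.50% of all genes were lower. The differences of these 4 were -0.68 for Tk1, -0.50 for Aurka, -0.47 for Kif23 and -0.42 for Anln, close to those over all libraries. The summed leukocyte markers were 604 to 1541 TPM in control and 316 to 446 TPM in treated DLP libraries, and the uroplakins, of which 3 of the 5 tested rose, 293 to 305 TPM and 681 to 843 TPM. Their part in the fall was not tested. Of the further genes, 3 of 60 mitotic genes were lower, near the 4.63% of all genes that were lower in the DLP. They were Spc25 of the kinetochore (-0.93 ± 0.12), Hmgb2 (-0.30 ± 0.07) and the condensin subunit Ncapg2 (-0.39 ± 0.10). Of 45 replication genes, 2 were lower, again near that share, Dbf4 (-0.40 ± 0.08) and Uhrf1 (-0.68 ± 0.14). Among 26 CDK inhibitors and quiescence genes, Gadd45a (1.13 ± 0.10) and Gadd45g (0.54 ± 0.10) were higher and Wee1 (-0.64 ± 0.09) lower. These too were near the shares of all genes, of which 6.09% were higher. Among 23 growth signal genes, 5 were higher and 1 lower, led by Egf (-1.11 ± 0.19), Areg (0.95 ± 0.17), the matricellular gene Cyr61 (0.46 ± 0.11) and Hgf (0.59 ± 0.15).

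T+E2 in the urethra. No member passed the limma test in the urethra, among 44 tested. Of all 12985 genes tested, 0.200% were higher and 0.162% lower, and at an unadjusted p under 0.05 no member was higher and 1, E2f1, was lower. With limma's array weights 1 member was called higher and 1 lower, where 7.44% and 10.5% of all genes were. The median difference over the tested members was -0.08, against -0.04 over all genes. Urethra control libraries 6, 7, 8 and 10 held Mki67 at 8.16, 7.33, 5.65 and 7.27 TPM and T+E2 libraries 1, 2, 3 and 4 at 6.64, 6.38, 7.38 and 6.12 TPM. Top2a, in the same order, was at 6.64, 7.20, 5.35 and 7.12 TPM and 5.09, 5.33, 6.78 and 5.65 TPM. Both genes overlapped between the groups, with 95% intervals of the difference of -0.32 to 0.16 and -0.43 to 0.08.

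Pcna in the urethra was at 68.2, 68.7, 60.1 and 69.2 TPM in control and 56.5, 63.9, 76.5 and 60.5 TPM in treated libraries, and Ccnd1 at 116, 114, 96.9 and 118 TPM and 76.0, 104, 114 and 98.8 TPM. Ccnd2 was at 26.6, 25.9, 20.9 and 25.1 TPM and 17.8, 20.5, 29.3 and 20.6 TPM. All 3 overlapped. The differences were -0.05 ± 0.09, -0.19 ± 0.12 and -0.17 ± 0.14. E2f1, named after its value was seen, was at 6.72, 5.96, 5.82 and 7.36 TPM in control and 4.99, 5.04, 4.69 and 4.61 TPM in treated libraries, separate in all 8, at -0.35 ± 0.09 (adjusted p = 0.14). This was the 1 member whose groups did not overlap (5.80% of all genes were separate and lower, and 2.30% separate and higher). Within the arms, control library 8 was lowest for 37 of the 45 members and treated library 3 was highest for 37. Without treated library 1, Gmnn became higher (0.42). No gene of the further mitotic (59 tested) or replication (45 tested) lists passed the limma test, and 2 and 0 of them were higher and 4 and 3 lower at an unadjusted p under 0.05.

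Differences between tissues in the response. The T+E2 effects were compared directly as differences of differences in 1 fit over the 24 adult libraries, in which all 45 members passed the filter. The AP fell more than the urethra in 25 members (7.06% of all 13469 genes), and in 1, Tyms, the AP rose more (17.4%). The AP fell more than the DLP in 4 members (3.27%), namely Top2a, Ube2c, Mki67 and Rrm2, and in 1, again Tyms, the AP rose more (7.18%). Between the DLP and the urethra no member differed in the limma fit. Of all genes, 2.46% had a higher and 1.17% a lower value in the DLP. At an unadjusted p under 0.05, 1 member was higher and 5 lower. With array weights 2 members were called lower, where 5.04% of all genes were. These 3 comparisons share libraries and are not independent of each other.

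Top2a had the largest of these differences. Its T+E2 effect in the AP minus that in the DLP was -1.66 ± 0.22 (adjusted p = 2.00e-05) on the log2 scale, and minus that in the urethra it was -2.11 ± 0.22 (adjusted p = 2.23e-07), the negative sign marking the deeper fall in the AP. For Tyms the differences were 0.69 ± 0.18 (adjusted p = 0.0135) and 1.07 ± 0.18 (adjusted p = 9.79e-05). Ube2c gave -0.99 ± 0.29 (adjusted p = 0.0302), Mki67 -0.70 ± 0.21 (adjusted p = 0.0356) and Rrm2 -0.65 ± 0.19 (adjusted p = 0.0263) between AP and DLP. Each of these 3 was lost without 1 of 6 or more single libraries, with adjusted p between 0.0520 and 0.0877, while Top2a and Tyms held in every alternative. The AP and DLP count was 15 without AP control library 8 and 9 without AP treated library 18. For AP against DLP it was 1 without AP control library 7 or 9, AP treated library 3 or DLP control library 8 or 10, and 2 without DLP treated library 18 or 24.

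Between AP and urethra, 11 of the 12 spindle, kinetochore and chromosome genes differed, led by Top2a and Birc5 (-1.27 ± 0.36, adjusted p = 0.0117). So did 5 of the 7 mitotic entry genes, led by Ccnb1 (-1.31 ± 0.29, adjusted p = 0.002) and Cdk1 (-1.11 ± 0.30, adjusted p = 0.00926), and 5 of the 8 cytokinesis and APC/C genes, led by Ube2c (-1.12 ± 0.29, adjusted p = 0.00671) and Kif20a (-0.86 ± 0.19, adjusted p = 0.00186). Of the 13 replication genes, 4 fell more in the AP, led by Tk1 (-1.11 ± 0.22, adjusted p = 5.92e-04) and Rrm2 (-0.80 ± 0.19, adjusted p = 0.00311). None of the 5 G1/S genes differed in this limma fit, where their adjusted p ranged from 0.202 to 0.974 and none had an unadjusted p under 0.05. Of the spindle, kinetochore and chromosome genes counted, Bub1, Cenpf and Cenpe were under 1 TPM in every AP T+E2 library. They passed the filter through other groups, where they were higher, so they add no support. The count over all roles was 16 without AP control library 7 and between 17 and 30 without any other library.

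**Figure D4:**
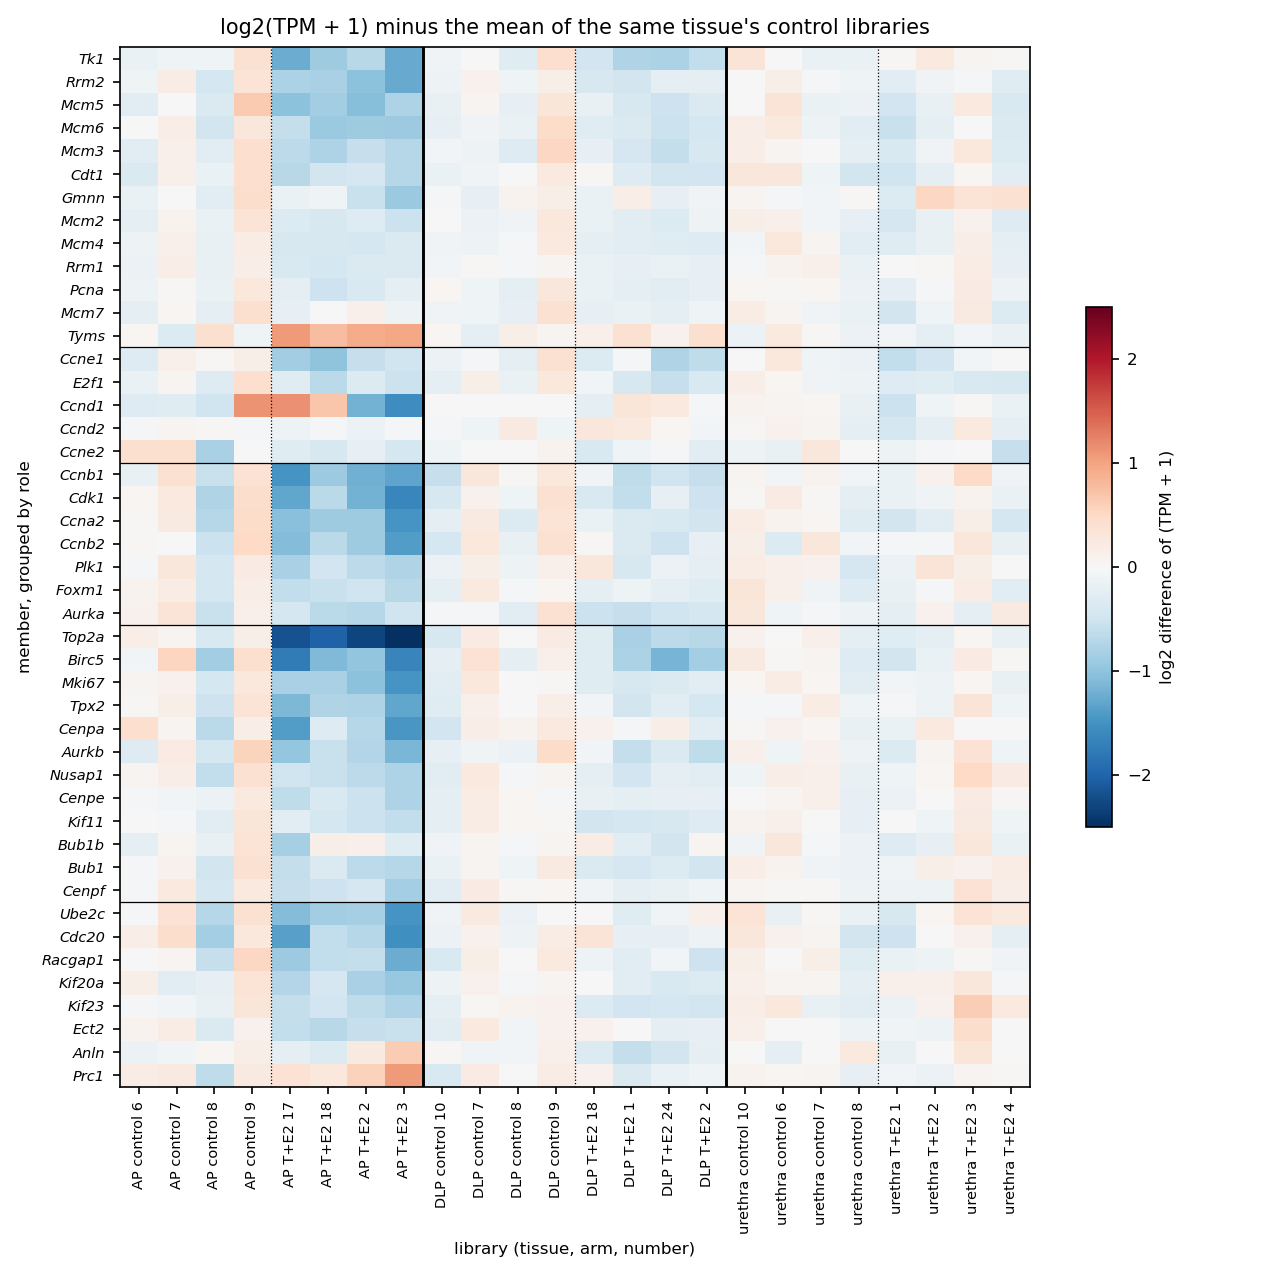
Difference of log2(TPM + 1) between each adult library and the mean of the same tissue's 4 control libraries, with 1 row per member grouped by role and 1 column per library. Blue is lower and red higher. The 4 AP T+E2 columns are blue across most rows, with Tyms red in all 4.

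Testosterone in cultured urogenital sinus. No member passed the limma test without a replicate block in UGS cultures, among 45 tested. Of all 13304 genes, 1.43% were higher and 0.301% lower, and at an unadjusted p under 0.05, 3 members were higher and 2 lower. With limma's array weights, which weigh libraries by their spread, 23 members were called higher and 6 lower, where 49.1% and 8.13% of all genes were. With the library letters as a replicate block, members were also called higher and lower, where 37.2% and 5.53% of all genes were. Those member counts are given with the processing below. The median difference was 0.07 over the members and 0.17 over all genes. With median-of-ratios rescaling the all-gene median moved to -0.00 and that of the members to -0.11, so the sign of the members' median depends on the scaling. In no member did every testosterone library lie above every hormone-free library (8.19% of all genes), and in 2 every one lay below (2.64%).

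Hormone-free libraries A, C, D and H held Ccnd2 at 112, 84.4, 86.8 and 72.9 TPM and testosterone libraries B, C, G and H at 183, 150.03, 166 and 102 TPM. Testosterone library H lay below hormone-free library A and the other 3 lay above all hormone-free values. The difference of 0.73 ± 0.18 was the largest of the 45 in UGS and had an adjusted p of 0.0909. Mki67 was at 64.0, 57.7, 55.2 and 50.7 TPM and 90.3, 66.6, 101 and 51.9 TPM, and Top2a at 113, 94.8, 96.3 and 87.5 TPM and 136, 109, 152 and 87.4 TPM. Libraries B and G were the highest for both, and library H lay among or just under the hormone-free values. The differences were 0.40 ± 0.19 (adjusted p = 0.172) and 0.28 ± 0.16 (adjusted p = 0.239).

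Pcna in UGS was at 406, 319, 322 and 391 TPM without hormone and 339.8, 337, 324 and 337 TPM with testosterone, and Ccnd1 at 154, 150.2, 194 and 119.9 TPM and 181, 189, 191 and 149 TPM. Both overlapped, with differences of -0.09 ± 0.09 and 0.21 ± 0.14. The members whose testosterone values all lay lower were Birc5 and Tk1, named after their values were seen. Birc5 was at 113, 127, 117 and 142 TPM and 91.3, 97.8, 98.2 and 111 TPM, a difference of -0.32 ± 0.09 (adjusted p = 0.116). Tk1 was at 80.8, 81.9, 72.9 and 88.6 TPM and 66.7, 72.4, 61.5 and 66.1 TPM, a difference of -0.28 ± 0.08 (adjusted p = 0.124). Neither passed the adjusted threshold.

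The UGS differences followed transcript length. Over the 45 members the difference and the log2 length of the longest annotated transcript had r = 0.722 (Spearman's rho 0.723), as a description across genes that share the same 8 libraries. Of 29 members of 3000 bases or more, 25 had a positive difference, among them Cenpe, Cenpf, Mki67, Ccnd2 and Top2a. Of 16 shorter members, 5 did, and Gmnn and Tk1 were among the negative ones. In the AP, DLP and urethra the same r was 0.05, 0.07 and -0.04. Over all genes, long transcripts minus short ones, as medians of the deviation from the mean of the 8 libraries, stood at 0.30 and 0.38 in testosterone libraries B and G, 0.06 and -0.13 in C and H, and between -0.32 and 0.00 in the 4 hormone-free libraries. With the length trend removed 0 members were called, as in the fit with it, and the members' median moved to -0.08. Without testosterone libraries B and G, again 0 members were called and the median was -0.01. Since the fit over all 8 libraries called 0 members, these counts cannot show a loss of calls. Without testosterone library H, 11 members were higher, led by Ccnd2 (0.90), Cenpe (0.69), Cenpf (0.66) and Mki67 (0.57), and 1, Birc5, was lower (-0.37), and of all genes 30.8% were higher and 3.35% lower.

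**Figure D5:**
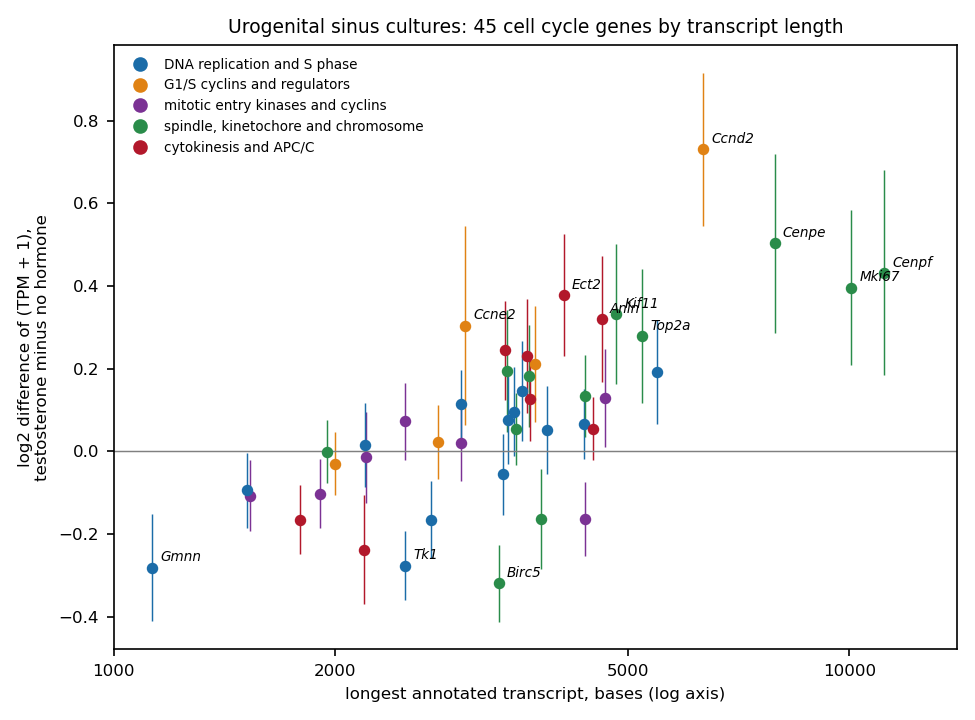
Difference between testosterone and hormone-free UGS libraries on the log2(TPM + 1) scale against the length of the longest annotated transcript (log axis), 1 point per member with a bar of 1 SE, coloured by role. Points rise from Gmnn at the left to Cenpe and Cenpf at the right, with Ccnd2 the highest at 0.73 and Birc5 the lowest at -0.32.

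Untreated tissues. Members differed between the untreated adult tissues in both directions. In the AP against the DLP, 2 members were higher, Top2a and Tyms (36.1% of all 13356 genes), and 6 were lower, Ccnd1, Gmnn, Ccnd2, Anln, E2f1 and Kif23 (23.5%). In the AP against the urethra, 7 were higher (41.4%), Top2a, Tyms, Anln, Ube2c, Aurkb, Kif20a and Ccne1, and 6 lower (33.4%), Ccnd2, E2f1, Ccnd1, Mcm6, Mcm2 and Rrm2. In the DLP against the urethra, 8 were higher (33.8%), Ccnd1, Anln, Gmnn, Tyms, Top2a, Nusap1, Kif23 and Kif20a, and 2, Ccnd2 and E2f1, lower (29.5%). The share of members called was below that of all genes in all 3 comparisons, which share libraries.

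Among G1/S genes the D-type cyclins set the tissues apart. Ccnd1 averaged 302 ± 2.89 TPM in the DLP (SD, n = 4), 111 ± 9.81 in the urethra and 79.8 ± 50.7 in the AP, the last spread by library 9. In the control libraries the 8 seminal vesicle genes summed to 172396 to 236617 TPM in the DLP. Their sums were 314 to 4433 TPM in the urethra and 35.6 to 54217 TPM in the AP. The part of seminal vesicle RNA in these Ccnd1 differences was not tested. Ccnd2 ran in another order, at 24.6 ± 2.55 TPM in the urethra, 15.1 ± 1.82 in the DLP and 8.73 ± 0.422 in the AP. Ccnd1 differed by -2.08 ± 0.26 (adjusted p = 2.67e-05) between AP and DLP and by 1.43 ± 0.26 (adjusted p = 3.37e-04) between DLP and urethra. Ccnd2 differed by -0.72 ± 0.09 (adjusted p = 2.75e-05) and -0.67 ± 0.09 (adjusted p = 2.37e-05) in the same 2 comparisons, and by -1.39 ± 0.09 (adjusted p = 1.06e-08) between AP and urethra. E2f1 was highest in the urethra, at 6.46 ± 0.716 TPM against 4.28 ± 0.914 in the DLP and 2.85 ± 0.898 in the AP, and AP minus urethra was -0.98 ± 0.16 (adjusted p = 9.16e-05).

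In replication, Tyms was highest in the AP, at 37.9 ± 8.65 TPM, then the DLP at 27.2 ± 3.19 and the urethra at 18.2 ± 2.56. It exceeded the urethra by 1.01 ± 0.14 (adjusted p = 2.51e-05) in the AP and by 0.56 ± 0.14 (adjusted p = 0.00415) in the DLP. Gmnn was highest in the DLP, at 20.8 ± 2.27 TPM against 11.99 ± 2.97 in the AP and 10.7 ± 0.460 in the urethra. The DLP exceeded the urethra by 0.90 ± 0.13 (adjusted p = 4.01e-05) while AP minus DLP was -0.77 ± 0.13 (adjusted p = 2.35e-04). AP control library 9, rich in seminal vesicle transcripts, held Gmnn at 16.3 TPM, and libraries 6, 7 and 8 held 10.3, 11.7 and 9.70 TPM. The part of seminal vesicle RNA in the Gmnn differences was not tested. Pcna was close in all 3, at 79.5 ± 11.3, 76.8 ± 12.05 and 66.5 ± 4.28 TPM in AP, DLP and urethra, and was called in none of the 3 comparisons.

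Among chromosome genes, Top2a was at 18.3 ± 3.12 TPM in the AP, 10.2 ± 2.06 in the DLP and 6.58 ± 0.855 in the urethra. The AP exceeded the DLP by 0.79 ± 0.15 (adjusted p = 6.37e-04) and the urethra by 1.34 ± 0.15 (adjusted p = 2.77e-06). Mki67 did not show this order, at 6.00 ± 1.35, 7.16 ± 1.28 and 7.10 ± 1.05 TPM, and was called in none of the 3. Of the cytokinesis genes, Anln was at 9.88 ± 0.702 TPM in the DLP, 6.83 ± 0.690 in the AP and 3.33 ± 0.582 in the urethra, with DLP over urethra by 1.34 ± 0.10 (adjusted p = 1.05e-07) and AP over urethra by 0.86 ± 0.10 (adjusted p = 5.03e-06). None of the 7 mitotic entry genes was called in any of the 3 comparisons by limma, and 1, Aurka, had an unadjusted p under 0.05, in the AP against the urethra.

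A scaling that left out the secretory, seminal vesicle and mitochondrial transcripts moved the all-gene median from 0.08 to -0.23 for AP against DLP and from 0.05 to 0.50 for DLP against urethra. The members' counts moved with it, to 1 higher and 16 lower and to 28 higher and 1 lower. Anln, Ccnd1, Ccnd2, Gmnn and Top2a held their calls between AP and DLP in every alternative in which they were tested, and Anln, Ccnd1, Ccnd2, Gmnn and Tyms held theirs between DLP and urethra. Between AP and urethra Anln, Ccnd2, E2f1, Kif20a, Top2a and Tyms did. Without AP control library 8, the AP had 6 members higher than the DLP, and 14 higher and 3 lower than the urethra, and without AP control library 7 or 9 it had 4 higher than the urethra. Without urethra control library 6 or 10 it had 3 lower. Without DLP control library 7, 1 member was higher in the AP than in the DLP. The DLP had 5 higher than the urethra without DLP control library 7, 8 or 9 or urethra control library 7 or 8.

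Embryonic and adult levels. Members were more abundant in the cultured embryonic UGS than in adult tissue. No test was made, since age, culture and dissection differ together and cannot be told apart. In hormone-free UGS the median member stood at 10.3, 10.5 and 11.2 times its mean in untreated AP, DLP and urethra, against 1.59, 1.71 and 1.69 times for the median gene of the table. For 43 of the 45 members the lowest UGS library, in either arm, exceeded the highest of the 24 adult libraries. The exceptions were Ccnd1 and Tyms. The same count was not made over all genes, so how far 43 stands out cannot be told. The highest ratio was that of the checkpoint kinase Bub1, 19.4 to 27.5 times its adult means, and the lowest that of Ccnd1 against the DLP, 0.511.

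Levels per gene ranged widely within each tissue. Over the adult libraries the most abundant members were Ccnd1, with a median of 116 TPM and a range from 23.6 to 374 TPM, and Pcna, with a median of 67.8 TPM and a range from 54.8 to 95.1 TPM. Bub1 was the least abundant, at 0.22 to 1.60 TPM. In UGS, over both arms, Pcna led with a median of 337 TPM, followed by Ccnd1 at 167 TPM, while Ccne2, the second E-type cyclin, was lowest at a median of 9.55 TPM. Mki67 lay between 1.49 and 8.77 TPM in adult libraries and between 50.7 and 101 TPM in UGS. Cdk1 lay between 1.19 and 8.12 TPM and between 65.7 and 86.3 TPM. Ccne1 was among the most even members in UGS, at 33.0 to 36.7 TPM in all 8 libraries, against 0.86 to 3.34 TPM in the adult.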

How the data were processed

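RNA-seq levels were analysed as deposited by the authors, in TPM, for 32 libraries in 8 groups of 4. The submitters' processing notes name STAR, RSEM, edgeR, FastQC and the mm9 build, without versions or roles. The table held 13780 genes, and the lowest of the genes' highest group means was 5.00 TPM, so the background is a selected set of genes. TPM keeps no read depth, and intervals for counting error could not be made.

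Levels were tested as log2(TPM + 1) with limma 3.58.1 (moderated test with a mean trend; R 4.3.3, statmod 1.5.0), on genes with at least 1 TPM in 4 libraries of each comparison. The p-values are two-sided and were Benjamini-Hochberg adjusted over all genes tested, with a call under 0.05. Within-tissue effects used that tissue's 8 libraries, differences between effects all 24 adult libraries, and untreated tissues the 12 adult control libraries. The code was tested on simulated data. Tables, promoter matches and plots used Python 3.11.15, pandas 2.3.3 and matplotlib 3.10.9.

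The members and all gene lists were chosen with earlier results of these data known. Values per library are given for up to 4 called members of each role with the largest change in the AP and up to 2 elsewhere, for Mki67, Top2a, Pcna, Ccnd1 and Ccnd2, and for members called against the main direction. Up to 4 genes by smallest adjusted p are named per further list, except 1 that is not reported here. Alternatives were other pseudocounts, filters and scalings, array weights, no trend, leaving out libraries, a replicate block and, added after seeing the data, removal of a transcript length trend. Deviations of libraries that share a number had correlations of -0.149 to 0.212 between adult tissues. Whether a shared number marks 1 animal is not in the labels and cannot be told from these values. The numbers were not taken as pairs outside the replicate block.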

Additional observations from a re-analysis of the deposited data

Results flagged for a closer look

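In 21 of the 360 sets of 4 values (45 members in 8 groups), 1 library lay far from the other 3, and chance alone gives about 1 in 20. In the AP control group the far values were Ccnd1 in library 9 (156 TPM, the next value being 57.1), Prc1 in library 8 (3.81 TPM, the next value being 7.45) and Tk1 in library 9 (17.4 TPM, the next value being 12.2). In the AP T+E2 group the far value was Mcm6 in library 17 (9.33 TPM, the next value being 7.40). In the DLP control group the far values were Aurkb in library 9 (4.90 TPM, the next value being 3.05), Mcm6 in library 9 (23.6 TPM, the next value being 15.7) and Mcm7 in library 9 (22.9 TPM, the next value being 16.1). In the DLP T+E2 group the far value was Cdc20 in library 18 (7.20 TPM, the next value being 5.04). In the urethra control group the far values were Plk1 in library 8 (1.83 TPM, the next value being 3.11), Kif20a in library 8 (2.24 TPM, the next value being 3.02) and Pcna in library 8 (60.1 TPM, the next value being 68.2). In the urethra T+E2 group the far values were Tpx2 in library 3 (4.38 TPM, the next value being 3.12) and Tk1 in library 2 (12.4 TPM, the next value being 10.8). In the hormone-free UGS group the far values were Ccne1 in library C (36.7 TPM, the next value being 33.9), Bub1b in library A (45.7 TPM, the next value being 36.3), Plk1 in library A (54.5 TPM, the next value being 45.4), Kif23 in library A (47.0 TPM, the next value being 39.3), Nusap1 in library H (55.3 TPM, the next value being 52.0), Mcm7 in library A (126 TPM, the next value being 109) and Ect2 in library A (25.0 TPM, the next value being 20.1). In the testosterone UGS group the far value was Cdk1 in library H (72.7 TPM, the next value being 66.7). Of the 7 in hormone-free UGS, 5 were high values of library A. All 3 in the urethra control group were low values of library 8, and all 3 in the DLP control group were high values of library 9.

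The effect of T+E2 differed between tissues in a direct limma test of the difference, given here in log2(TPM + 1) as the AP effect minus the other. Against the DLP the differences were Top2a (-1.66), Ube2c (-0.99), Mki67 (-0.70), Rrm2 (-0.65) and Tyms (0.69). Against the urethra Tyms was higher (1.07) and 25 members were lower. Of these, Top2a (-2.11), Ccnb1 (-1.31), Birc5 (-1.27), Ube2c (-1.12), Cdk1 (-1.11), Tk1 (-1.11), Ccnb2 (-1.02), Cenpa (-0.99), Tpx2 (-0.99) and Mki67 (-0.95) differed most. The rest were Kif20a (-0.86), Aurkb (-0.84), Kif23 (-0.83), Ccna2 (-0.82), Rrm2 (-0.80), Nusap1 (-0.77), Plk1 (-0.76), Racgap1 (-0.75), Mcm5 (-0.74), Bub1 (-0.67), Cenpf (-0.66), Ect2 (-0.66), Cenpe (-0.60), Kif11 (-0.47) and Rrm1 (-0.39). Bub1, Cenpf and Cenpe were under 1 TPM in every AP T+E2 library and passed the filter through other groups, so they add no support. Of the 26 members called against the urethra, 17 kept their call in every alternative in which they were tested, Bub1 and Cenpe among them. The others lost it when single libraries were left out, with a limma adjusted p of at most 0.107. The number of such libraries was 11 for Kif11 and Racgap1, 10 for Ccna2 and Mcm5, 8 for Aurkb and 7 for Cenpa. It was 4 for Cenpf and 3 for Plk1 and Rrm1. Each comparison takes in the same 8 AP libraries.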

How the results depend on the processing

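No member that was called changed direction under any alternative run: 1877 of the called members' values kept their side of the threshold and 260 lost it. Leaving out each library in turn gave 24 to 33 members lower and 1 to 1 higher in the AP, 1 to 7 lower in the DLP, 0 to 1 higher in the urethra, and 0 to 11 higher and 0 to 1 lower in UGS. For the effects compared between tissues, where these runs were chosen after seeing the data, it gave 1 to 15 lower and 1 to 2 higher for AP minus DLP, 16 to 30 lower and 1 to 1 higher for AP minus urethra, and 0 to 1 lower for DLP minus urethra. For untreated tissues it gave 1 to 6 higher and 4 to 8 lower in AP against DLP, 4 to 14 and 3 to 8 in AP against urethra, and 5 to 8 and 2 to 3 in DLP against urethra. With at least 5 TPM in 4 libraries, 9 were lower in the AP, 14 lower in AP minus urethra, and 4 and 5 higher in untreated AP and DLP against urethra; fewer members are tested there. Without the seminal vesicle-rich AP libraries 3 were higher, and without the muscle-rich DLP libraries 2 were lower. Rescaled without secretion, seminal vesicle and mitochondrial genes, 11 were lower in the DLP, 1 lower in DLP minus urethra, 1 higher and 16 lower in untreated AP against DLP, 11 and 2 in AP against urethra, and 28 and 1 in DLP against urethra, where the all-gene medians moved to -0.23, 0.21 and 0.50. With array weights there was 1 higher and 1 lower in the urethra (7.44% and 10.5% of all genes). In UGS there were 23 and 6 (49.1% and 8.13%). AP minus DLP gave 2 and 19 (15.1% and 4.73%), AP minus urethra 2 higher (26.4%) and DLP minus urethra 2 lower (5.04%). In untreated tissues there were 8 higher in AP against DLP (35.0%) and 11 higher in AP against urethra (42.7%). DLP against urethra gave 4 and 4 (40.6% and 30.4%). Shares of all genes are not given here for the other settings, so those counts show only how the members' calls moved. Quantile normalization gave 1 lower in AP minus DLP, 5 lower in DLP minus urethra, and 11 and 25 higher in untreated AP against DLP and urethra. Median-of-ratios rescaling gave 2 lower in DLP minus urethra and 4 and 5 higher in untreated AP and DLP against urethra. With the length trend removed, 2 were lower in DLP minus urethra and 4 higher in untreated AP against urethra. The cause of these shifts was not tested. Of the 6 DLP calls 0, and of the 34 AP calls 21, held in every alternative in which the gene was tested. Cenpe, counted among the 21, was under the filter without any 1 AP control library and without the seminal vesicle-rich libraries.

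With the replicate block, 3 members were higher and 5 lower in UGS, where 37.2% and 5.53% of all genes were, and 1 was lower in DLP minus urethra. Letters C and H name a UGS library in each arm, and the correlations of these 2 pairs' deviations were 0.0949 and 0.629. The correlation within letters that the block fit estimated over all genes in UGS was 0.733. The labels do not say what the letters mark, so whether they are pairs cannot be told. The UGS fit reported above used no block. Read depth is unknown, so what depth limits at low TPM cannot be stated.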

Other observations

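Genes around the cell cycle in UGS gave few calls, as did all genes tested, of which 1.43% were higher and 0.301% lower. In the testosterone libraries limma called higher Ccng2, an atypical cyclin of resting cells (0.40 on the log2 scale), Cdk18 (0.62) and the mesenchymal growth factor Fgf10 (1.47), and no other gene of the 7 further cell cycle and growth lists passed. The summed level of the 45 members without Ccnd1 was 323 to 479 TPM in AP control and 290 to 303 TPM in AP T+E2 libraries.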
